A study of Mus musculus with 34 samples.

Results

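The comparison described here set S100a8f/fCx3cr1Cre livers against S100a8f/f livers after a high-fat diet (HFD), and covered 9 of the 34 RNA-Seq libraries in the series. It was chosen by sample: 4 libraries of S100a8f/fCx3cr1Cre mice (replicates 1, 3, 4 and 5) and 5 libraries of S100a8f/f mice (replicates 1 to 5), each from the whole liver of 1 male mouse. In S100a8f/fCx3cr1Cre mice, both copies of S100a8 are floxed and Cre comes from the Cx3cr1 gene, so that S100a8 is removed in monocytes and macrophages that use this gene but stays in neutrophils; S100a8f/f littermates carry the same floxed alleles without Cre. Diets began at 8 weeks of age, with 60% of calories from fat in HFD and 10% in chow. They are taken here to have lasted 3 months, but the sources differ on this and another passage gives 4 months for these mice. The question was which hepatic genes differ once macrophages lack S100a8 under fat loading. A further 9 libraries, from chow-fed S100a8f/fCx3cr1Cre mice (n = 5) and chow-fed S100a8f/f mice (n = 4), shared the fit and gave the same genotypes without HFD. Some values are also given for HFD-fed wild-type littermates of mice that overexpress Bcl2 in adipocytes, a separate experiment outside the fit. No group carried Cre without the floxed alleles, so effects of Cre, of the altered Cx3cr1 copy and of the S100a8 deletion cannot be told apart.

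S100A8 and S100A9 are calcium-binding proteins that pair into calprotectin, an alarmin released by neutrophils and monocytes that signals through TLR4 and RAGE. The liver holds resident macrophages, the Kupffer cells, and during fat loading it also recruits monocyte-derived, lipid-associated macrophages marked by TREM2 and GPNMB. Around the portal vessels lie smooth muscle cells and adventitial fibroblasts, which contract and make elastic fibres. Hepatic stellate cells, which store vitamin A and turn into scar-forming cells, lie within the lobule.

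Values are given as CPM, a gene's counts scaled to a common library size with TMM, a factor that balances library composition. A gene was called changed at an adjusted p below 0.05 in edgeR's quasi-likelihood test, adjusted by Benjamini-Hochberg over 13817 genes, and fold changes put S100a8f/fCx3cr1Cre over S100a8f/f. Libraries held 21184402 to 24706991 counts in S100a8f/fCx3cr1Cre HFD livers and 21446820 to 22710334 counts in S100a8f/f HFD livers. On HFD, 118 genes were higher in S100a8f/fCx3cr1Cre livers (0.854% of genes tested) and 4 were lower (0.0289%), 0.883% in either direction. The log2 fold changes of the 118 genes ran from 0.58 to 3.57 with a median of 1.52, against a median of 0.00 over all genes. Of them, 93 differed by more than 2-fold and 36 by more than 4-fold. In 117 of the 118, every S100a8f/fCx3cr1Cre HFD liver lay above every S100a8f/f HFD liver, a separation seen in 2.74% of all genes. All 4 lower genes were separated the other way, as were 1.71% of all genes. The 4 S100a8f/fCx3cr1Cre and 5 S100a8f/f livers also lay apart on the first principal component of the 500 most variable genes of the 9 HFD libraries, which held 41.1% of their variance. Within 5 Mb of Cx3cr1 on chromosome 9, 1 of 80 genes tested was called (Clec3b, higher), and within 5 Mb of S100a8 on chromosome 3, 2 of 155 were called (S100a6 and Thbs3, both higher). Thbs3 lost its call without any 1 of the 9 HFD libraries, and S100a6 without S100a8f/f replicate 1, 2 or 5 or S100a8f/fCx3cr1Cre replicate 1, 3 or 4 (adjusted p up to 0.131 and 0.109).

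The deletion itself could not be read from these libraries. S100a8 was not analysed here, and of the 13 neutrophil markers only S100a9 and Csf3r were measured. S100a9, the partner of S100a8, had 1.59, 1.31, 1.42 and 1.20 CPM in S100a8f/fCx3cr1Cre HFD livers and 1.45, 0.831, 0.775, 0.781 and 0.961 CPM in S100a8f/f HFD livers. These ranges overlapped and the log2 fold change of 0.52 had a 95% interval of -0.62 to 1.66 (adjusted p = 0.926). Cx3cr1, the fractalkine receptor gene that drives Cre, had 1.17, 1.19, 2.15 and 1.28 CPM in S100a8f/fCx3cr1Cre HFD livers and 3.85, 1.89, 1.59, 2.14 and 2.84 CPM in S100a8f/f HFD livers. The groups overlapped, and the log2 fold change of -0.77 did not pass the test (95% interval -1.49 to -0.04, adjusted p = 0.599). Its ligand Cx3cl1 averaged 4.42 ± 1.27 CPM in S100a8f/fCx3cr1Cre HFD livers and 3.10 ± 0.552 CPM in S100a8f/f HFD livers (SD, n = 4 and 5, adjusted p = 0.510).

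Markers of smooth muscle were among the genes that rose most. Of 17 measured smooth muscle markers, 7 were higher (Acta2, Myh11, Cnn1, Lmod1, Myl9, Smtn and Flna) and none was lower, with a median log2 fold change of 0.62 against 0.00 over all genes. Over all genes 0.854% were higher. The rise was not uniform: Mylk, Cald1, Rgs5, Tpm2, Notch3 and Hspb6 were among the markers not called. Log2 fold changes of the list ran from -0.16 to 3.57 and were positive in 16 markers. Myh11, the smooth muscle myosin heavy chain, had 33.005, 31.4, 34.4 and 33.3 CPM in S100a8f/fCx3cr1Cre HFD livers, against 1.37, 1.34, 3.49, 6.25 and 8.48 CPM in S100a8f/f HFD livers. All 4 S100a8f/fCx3cr1Cre livers lay within a few CPM of each other, while the S100a8f/f livers were spread widely and none came near them. The difference was 7.86-fold (log2 2.97 ± 0.46 SE, adjusted p = 0.00119). Cnn1, which encodes calponin 1, an actin-binding protein of contractile smooth muscle, had 10.9, 11.5, 12.7 and 11.6 CPM in S100a8f/fCx3cr1Cre HFD livers, against 0.165, 0.185, 1.25, 1.07 and 2.21 CPM in S100a8f/f HFD livers. Replicates 1 and 2 of S100a8f/f held almost no Cnn1, and the 11.8-fold difference was the largest among the called genes (log2 3.57 ± 0.66 SE, adjusted p = 0.00564). Acta2, the smooth muscle actin gene that activated stellate cells also use, was named after its values were seen. It had 107, 97.9, 120.3 and 104 CPM in S100a8f/fCx3cr1Cre HFD livers and 7.69, 5.36, 12.7, 22.1 and 24.5 CPM in S100a8f/f HFD livers. This was a 7.41-fold difference (log2 2.89 ± 0.52 SE, adjusted p = 0.00494). Myl9, the myosin regulatory light chain of smooth muscle, was 5.98-fold higher, with 43.3, 48.9, 50.4 and 52.7 CPM in S100a8f/fCx3cr1Cre HFD livers and 7.28, 3.79, 7.88, 11.1 and 10.7 CPM in S100a8f/f HFD livers (adjusted p = 0.00167). Flna, an actin crosslinker of many cell types, and Smtn, the gene of the contractile protein smoothelin, were 2.49-fold and 1.77-fold higher (adjusted p = 7.87e-05 and 0.00137). The smooth muscle markers Tagln and Actg2 and all 12 skeletal muscle markers were not analysed here.

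**Figure D1:**
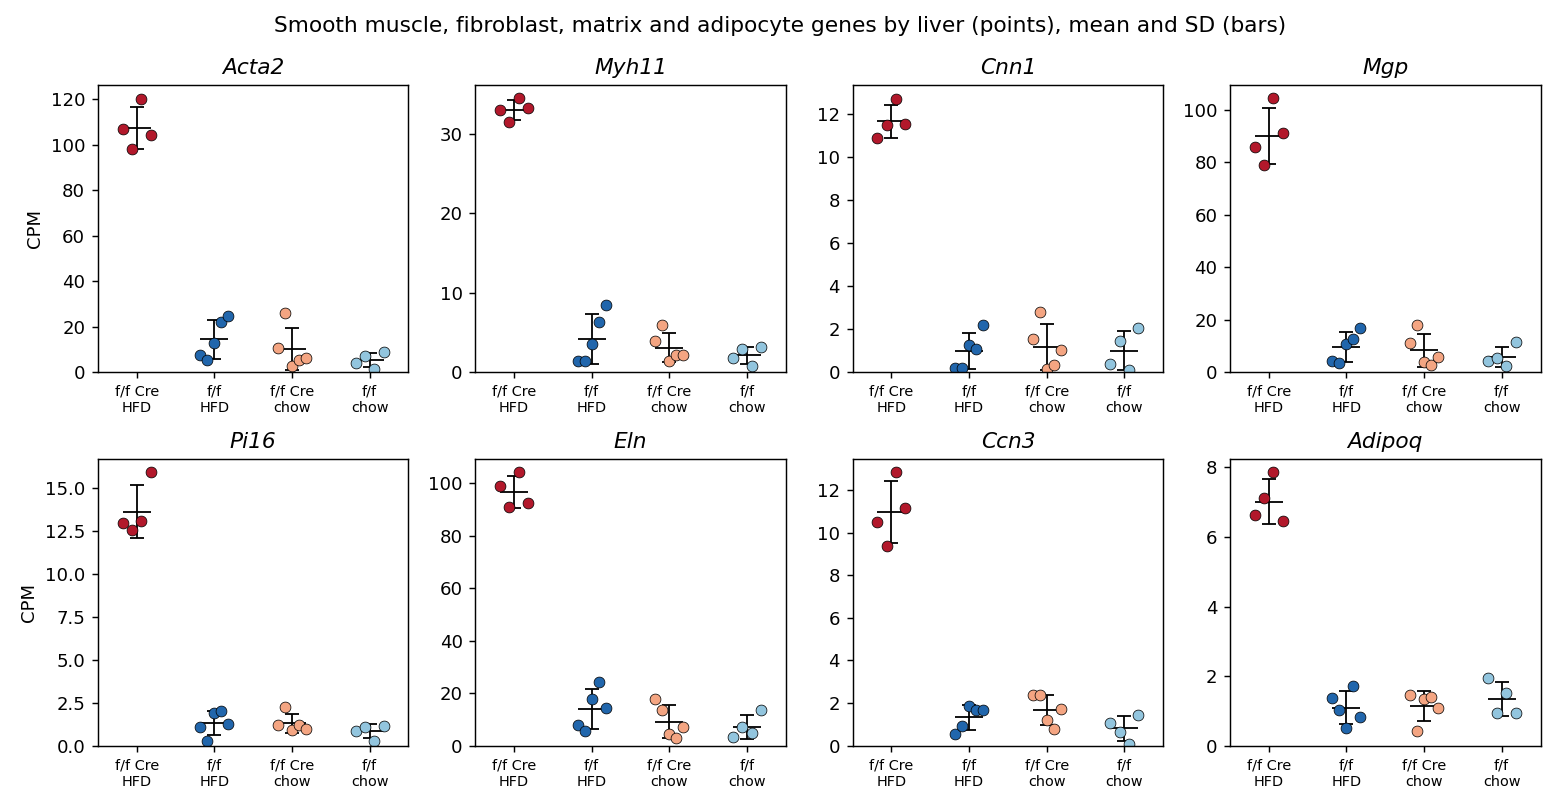
CPM of 8 genes in each liver (points), with the group mean and SD (bars), for S100a8f/fCx3cr1Cre on HFD (n = 4), S100a8f/f on HFD (n = 5), S100a8f/fCx3cr1Cre on chow (n = 5) and S100a8f/f on chow (n = 4). Axes are linear and start at 0. For each gene the 4 S100a8f/fCx3cr1Cre HFD livers stood above the 14 others; for Acta2 they held 97.9 to 120.3 CPM, against 5.36 to 24.5 CPM in S100a8f/f HFD livers.

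Contractile genes are classic targets of serum response factor, which binds the CArG box. The promoters of Acta2 and Myl9 are shown, the higher smooth muscle markers for which a box was found. The RefSeq promoters (build GRCm38.p6, 250 bases before to 50 after the start) are given 5′ to 3′ on the gene's strand. Capitals mark CArG boxes, with up to 1 mismatch in the inner run of A and T. The Acta2 window is chr19:34255324-34255623 on the minus strand and the Myl9 window is chr2:156775214-156775513 on the plus strand.
Acta2: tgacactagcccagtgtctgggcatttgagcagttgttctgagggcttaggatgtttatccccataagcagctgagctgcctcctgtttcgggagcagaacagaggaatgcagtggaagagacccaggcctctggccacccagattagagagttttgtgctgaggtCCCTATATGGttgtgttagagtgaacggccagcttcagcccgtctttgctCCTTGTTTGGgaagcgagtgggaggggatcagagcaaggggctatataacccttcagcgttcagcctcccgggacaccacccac
Myl9: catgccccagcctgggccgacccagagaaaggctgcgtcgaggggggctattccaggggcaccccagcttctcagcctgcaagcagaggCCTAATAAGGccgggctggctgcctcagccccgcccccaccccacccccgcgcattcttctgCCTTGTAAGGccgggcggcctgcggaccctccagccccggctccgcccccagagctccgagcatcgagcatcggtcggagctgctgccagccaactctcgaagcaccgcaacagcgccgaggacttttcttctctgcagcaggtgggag
Acta2 carried 2 boxes with 1 mismatch each, beginning 84 and 34 bases before the start. Myl9 carried a full box beginning 161 bases before the start and a box with 1 mismatch 99 bases before it. No box, full or with up to 1 mismatch, was found for the higher smooth muscle markers Myh11, Cnn1, Lmod1, Smtn or Flna in the promoters available. Of 18 promoters of the smooth muscle list, called or not, 1 held a full box and 4 held one with up to 1 mismatch. Promoters were found for 89 of the 118 higher genes. Of their 117 promoters, 4 (3.42%) held a full CArG box and 16 (13.7%) held one with up to 1 mismatch. The full boxes were those of Fhl1, Meg3, Myl9 and Myom1. The shares were 1.30% and 8.99% of the 13132 promoters of genes tested and 1.63% and 9.98% of all 32851 promoters. The difference between these shares was not tested. The box reads the same on both strands, and a match describes letters in the window, not binding.

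Fibroblasts of the portal tract and vessel adventitia gave the cell type list with the most members called. Of 16 measured markers, 9 were higher (Pi16, Dpt, Cd34, Gsn, Clec3b, Mfap4, Eln, Fbln1 and Fbln2) and none was lower, with a median log2 fold change of 0.94. Over all genes 0.854% were higher. The rise was not shared by the whole list: Dcn, Lum, Thy1, Pdgfra, Col15a1, Entpd2 and Gas1 were not called. Log2 fold changes of the list ran from -0.18 to 3.37 and were positive in 14 markers. Pi16, a peptidase inhibitor that marks adventitial fibroblasts across tissues, had 12.9, 12.6, 13.1 and 15.9 CPM in S100a8f/fCx3cr1Cre HFD livers, against 1.08, 0.277, 1.89, 2.01 and 1.25 CPM in S100a8f/f HFD livers. The lowest S100a8f/fCx3cr1Cre liver was far above the highest S100a8f/f liver, and the 10.4-fold difference shared the smallest adjusted p-value of the comparison with Vim, Fstl1 and Nupr1 (log2 3.37 ± 0.36 SE, adjusted p = 4.80e-05). Clec3b, which encodes tetranectin, averaged 3.999 ± 1.12 CPM in S100a8f/fCx3cr1Cre HFD livers and 0.532 ± 0.369 CPM in S100a8f/f HFD livers (SD, n = 4 and 5, adjusted p = 0.00299). Gsn, the actin-severing protein gelsolin, differed less in size but with little spread, at 79.4, 87.5, 80.02 and 78.97 CPM in S100a8f/fCx3cr1Cre HFD livers and 42.7, 43.3, 36.6, 44.6 and 41.6 CPM in S100a8f/f HFD livers. Its fold change was 1.95 (adjusted p = 0.00145). Cd34, shared by these fibroblasts and by vessel endothelium, was 3.55-fold higher (adjusted p = 0.00170).

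Several matrix genes rose. Of 35 measured matrix proteins and crosslinking enzymes, 10 were higher, against 0.854% of all genes (Eln, Fbln1, Fbln2, Fbln5, Mfap4, Ltbp1, Ltbp2, Lox, Postn and Ogn). None was lower (median log2 fold change 0.52). Most of these 10 genes build or attach to elastic fibres. Eln, the elastin gene, had 98.7, 90.97, 104 and 92.4 CPM in S100a8f/fCx3cr1Cre HFD livers, against 7.90, 5.68, 17.95, 24.2 and 14.4 CPM in S100a8f/f HFD livers. The groups were well apart (6.87-fold, log2 2.78 ± 0.45 SE, adjusted p = 0.00186). Lox, the oxidase that crosslinks elastin and collagen, had 6.72, 7.63, 7.45 and 7.39 CPM in S100a8f/fCx3cr1Cre HFD livers and 1.45, 0.646, 0.990, 1.36 and 1.504 CPM in S100a8f/f HFD livers (adjusted p = 0.00185). Ogn, a small proteoglycan gene, averaged 10.2 ± 0.380 CPM in S100a8f/fCx3cr1Cre HFD livers and 1.91 ± 0.664 CPM in S100a8f/f HFD livers (SD, n = 4 and 5, adjusted p = 7.86e-04). Mgp, matrix Gla protein, which restrains calcification of vessel walls, had 85.8, 78.96, 104 and 91.3 CPM in S100a8f/fCx3cr1Cre HFD livers and 4.05, 3.46, 10.8, 12.5 and 16.7 CPM in S100a8f/f HFD livers. It was 9.46-fold higher (adjusted p = 0.00119).

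No collagen gene was called in the main fit, where 0.854% of all genes were called higher and 0.0289% lower. Of the 20 measured, 6 were higher at an unadjusted p below 0.05 against 4.90% of all genes, with a median log2 fold change of 0.11. Col5a2 came closest (log2 fold change 1.01, 95% interval 0.48 to 1.54, adjusted p = 0.0756). The alternative tests DESeq2 and limma-voom both called Col5a2 and Col4a5 higher, and limma-voom also called Col8a1. None of the 13 hepatic stellate markers was called either, and their median was -0.18. Their summed level was 304.2 to 343 CPM in S100a8f/fCx3cr1Cre HFD livers and 305 to 426 CPM in S100a8f/f HFD livers, so the groups overlapped. Among 20 measured matrix proteases and inhibitors, 3 inhibitors were higher: Timp1 (2.40-fold, adjusted p = 0.0406), Timp2 (1.83-fold, adjusted p = 9.87e-05) and Serpine2 (2.65-fold, adjusted p = 4.34e-04). Timp1 lost its call without any HFD library other than S100a8f/f replicate 1, and without S100a8f/fCx3cr1Cre chow replicate 1 or 3 (adjusted p up to 0.158).

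Of 5 measured CCN family genes, matricellular proteins that modulate integrin and growth factor signals, Ccn2, Ccn3 and Ccn5 were higher, where 0.854% of all genes were higher. Ccn3 had 10.5, 9.38, 12.8 and 11.1 CPM in S100a8f/fCx3cr1Cre HFD livers, against 0.538, 0.923, 1.85, 1.68 and 1.67 CPM in S100a8f/f HFD livers. Every S100a8f/fCx3cr1Cre liver lay far above every S100a8f/f liver, and the difference was 8.17-fold (log2 3.03 ± 0.40 SE, adjusted p = 3.32e-04). Ccn5, a growth inhibitor of vascular smooth muscle cells, had 7.09, 6.95, 6.33 and 5.17 CPM in S100a8f/fCx3cr1Cre HFD livers and 1.08, 0.831, 1.33, 1.81 and 0.877 CPM in S100a8f/f HFD livers. It was 5.36-fold higher (adjusted p = 1.97e-04). Ccn2, the connective tissue growth factor, had 34.8, 27.2, 35.5 and 38.7 CPM in S100a8f/fCx3cr1Cre HFD livers and 6.16, 10.99, 13.6, 15.04 and 9.07 CPM in S100a8f/f HFD livers (3.10-fold, adjusted p = 0.00227). Among 34 measured genes of TGFβ, BMP and Wnt signaling, 3 were higher, against 0.854% of all genes. All 3 encode secreted Wnt modulators: Sfrp1 (5.53-fold, adjusted p = 0.00145), Sfrp2 (10.8-fold, adjusted p = 0.0117) and Dkk3 (2.49-fold, adjusted p = 0.0410). Dkk3 lost its call without any HFD library other than S100a8f/f replicate 4 or S100a8f/fCx3cr1Cre replicate 1, and without S100a8f/f chow replicate 2 or S100a8f/fCx3cr1Cre chow replicate 5 (adjusted p up to 0.190). The other genes among the 12 largest differences were Cytl1, a secreted cytokine-like protein, the pericyte proteoglycan gene Cspg4, Scube3, Sh3bgr, the small heat shock gene Hspb7 and the amino acid transporter gene Slc36a2. Their folds ran from 8.05 for Scube3 to 11.4 for Cytl1, at 1.41 to 6.24 CPM in S100a8f/fCx3cr1Cre HFD livers and 0 to 1.04 CPM in S100a8f/f HFD livers. Fstl1, a secreted glycoprotein, and Nupr1, a stress-induced nuclear protein, were named after their values were seen. Fstl1 had 37.6, 41.2, 41.7 and 37.2 CPM in S100a8f/fCx3cr1Cre HFD livers and 17.2, 9.74, 13.8, 17.5 and 11.7 CPM in S100a8f/f HFD livers (2.81-fold, adjusted p = 4.80e-05). Nupr1 had 13.4, 13.3, 15.4 and 11.3 CPM in S100a8f/fCx3cr1Cre HFD livers and 3.76, 3.28, 4.43, 4.23 and 4.47 CPM in S100a8f/f HFD livers (3.30-fold, adjusted p = 4.80e-05), with neither gene overlapping between groups. Hspb7 lost its call without S100a8f/f replicate 1 or 3 (adjusted p up to 0.0632).

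**Figure D2:**
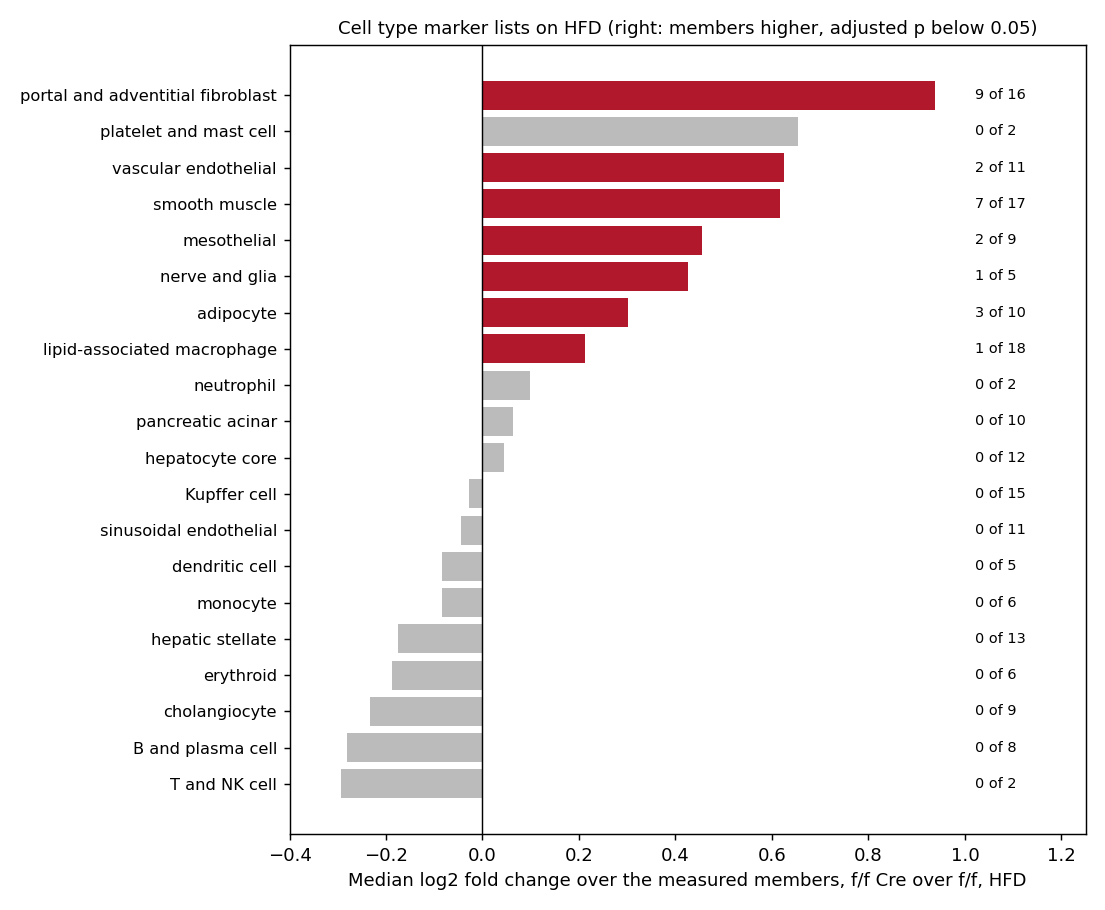
Median log2 fold change (S100a8f/fCx3cr1Cre over S100a8f/f, HFD) over the measured members of each of 20 cell type marker lists, with the number of members called higher at the right. Bars with any called member are red; the fibroblast list led with 9 of 16 called, and the Kupffer, stellate, sinusoidal and hepatocyte lists had none.

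Some markers of fat cells, endothelium and the liver surface were also higher, where 0.854% of all genes were higher. Of 10 measured adipocyte markers, 3 were higher (Adipoq, Plin1 and Fabp4) and none was lower, with a median log2 fold change of 0.30. Adipoq, the fat cell hormone adiponectin, had 6.63, 7.11, 7.88 and 6.45 CPM in S100a8f/fCx3cr1Cre HFD livers, against 1.37, 1.02, 0.517, 1.73 and 0.836 CPM in S100a8f/f HFD livers. The groups did not approach each other (6.38-fold, adjusted p = 1.16e-04). Plin1, which coats the lipid droplet of fat cells, had 5.01, 6.28, 5.47 and 6.92 CPM in S100a8f/fCx3cr1Cre HFD livers and 1.20, 1.48, 0.344, 1.81 and 0.668 CPM in S100a8f/f HFD livers (5.36-fold, adjusted p = 0.00186). Cfd, the fat cell serine protease adipsin, had 138, 74.2, 71.3 and 56.9 CPM in S100a8f/fCx3cr1Cre HFD livers and 13.1, 25.7, 28.9, 18.2 and 5.89 CPM in S100a8f/f HFD livers. Its groups did not overlap, and it was not called in the main fit (adjusted p = 0.133). Cfd was called by limma-voom, in a fit of the HFD groups alone and without S100a8f/fCx3cr1Cre chow replicate 5. The summed adipocyte list, which holds genes that hepatocytes also use, spanned 3415 to 3867 CPM in S100a8f/fCx3cr1Cre HFD livers and 3176 to 4276 CPM in S100a8f/f HFD livers. The fat cell markers Lep, Retn and Adig were not analysed here. Of 11 vascular endothelial markers, Cd34 and Pecam1 were higher (median log2 fold change of the list 0.63). Of 9 measured mesothelial markers, Cpe and Crip1 were higher (median 0.45). The mesothelial markers Upk3b and Krt19 were not called in the main fit or in any of 26 alternatives. With 1 library left out at a time, Pecam1 kept its call only without S100a8f/f HFD replicate 4 or S100a8f/f chow replicate 1, 2 or 4 (adjusted p up to 0.160). Crip1 lost its call without any HFD library other than S100a8f/f replicate 1 (adjusted p up to 0.136 over all alternatives). Summed levels were 691 to 750.5 CPM in S100a8f/fCx3cr1Cre HFD livers and 457 to 497 CPM in S100a8f/f HFD livers for smooth muscle. For adventitial fibroblasts they were 474 to 513 CPM in S100a8f/fCx3cr1Cre HFD livers and 268 to 347 CPM in S100a8f/f HFD livers. For vascular endothelium they were 98.2 to 119 CPM in S100a8f/fCx3cr1Cre HFD livers and 57.2 to 96.4 CPM in S100a8f/f HFD livers. For mesothelium they were 105 to 132 CPM in S100a8f/fCx3cr1Cre HFD livers and 63.2 to 84.4 CPM in S100a8f/f HFD livers. None of these sums overlapped between groups. In whole liver, more cells of a type and more RNA per cell cannot be told apart, and the part of tissue composition in these differences was not tested.

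Few macrophage markers were called, where 0.883% of all genes were called. None of 15 Kupffer cell markers was called (median log2 fold change -0.03), and their summed level was 488 to 632 CPM in S100a8f/fCx3cr1Cre HFD livers and 486 to 748 CPM in S100a8f/f HFD livers. C1qa, a complement subunit made by macrophages, averaged 59.2 ± 10.2 CPM in S100a8f/fCx3cr1Cre HFD livers and 58.5 ± 12.8 CPM in S100a8f/f HFD livers (SD, n = 4 and 5). Its log2 fold change of 0.02 had a 95% interval of -0.62 to 0.65. The intervals were -0.60 to 0.63 for C1qb and -0.56 to 0.51 for C1qc. The scavenger receptor gene Marco had 5.38, 6.28, 3.23 and 3.54 CPM in S100a8f/fCx3cr1Cre HFD livers and 6.45, 3.97, 16.6, 13.8 and 7.02 CPM in S100a8f/f HFD livers, overlapping groups with an adjusted p of 0.488. Of the 18 lipid-associated macrophage markers, 5 were higher at an unadjusted p below 0.05, against 4.90% of all genes, and none was lower. Their median log2 fold change was 0.21. It was positive in 14 of these markers, and 1 marker was called. That was Gpnmb, a lysosomal membrane glycoprotein of lipid-laden macrophages, with 59.8, 37.3, 48.9 and 45.3 CPM in S100a8f/fCx3cr1Cre HFD livers against 12.2, 6.97, 10.2, 14.2 and 8.44 CPM in S100a8f/f HFD livers. The groups lay far apart (4.59-fold, log2 2.20 ± 0.42 SE, adjusted p = 0.00804). Trem2, the lipid receptor that defines these cells, had 7.09, 7.19, 7.96 and 5.59 CPM in S100a8f/fCx3cr1Cre HFD livers and 7.11, 2.68, 1.89, 4.89 and 4.51 CPM in S100a8f/f HFD livers. The groups overlapped at S100a8f/f replicate 1, and the log2 fold change of 0.72 was not called (95% interval 0.13 to 1.31, adjusted p = 0.463). Fabp5, a fatty acid chaperone, averaged 13.7 ± 3.12 CPM in S100a8f/fCx3cr1Cre HFD livers and 6.63 ± 2.87 CPM in S100a8f/f HFD livers (SD, n = 4 and 5, adjusted p = 0.425). Fabp4, shared by fat cells, capillary endothelium and macrophages, was called at 2.63-fold, with 69.8, 72.1, 98.2 and 73.5 CPM in S100a8f/fCx3cr1Cre HFD livers and 48.7, 29.8, 17.9, 31.7 and 20.7 CPM in S100a8f/f HFD livers (adjusted p = 0.0104). Without S100a8f/fCx3cr1Cre replicate 4 the Fabp4 call was lost (adjusted p = 0.0569). No member was called among 6 monocyte, 5 dendritic cell, 2 T and NK cell and 8 B and plasma cell markers measured, 22 chemokine and cytokine genes, 28 interferon-stimulated genes or 18 genes of S100A8/A9 receptors and signaling.

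**Figure D3:**
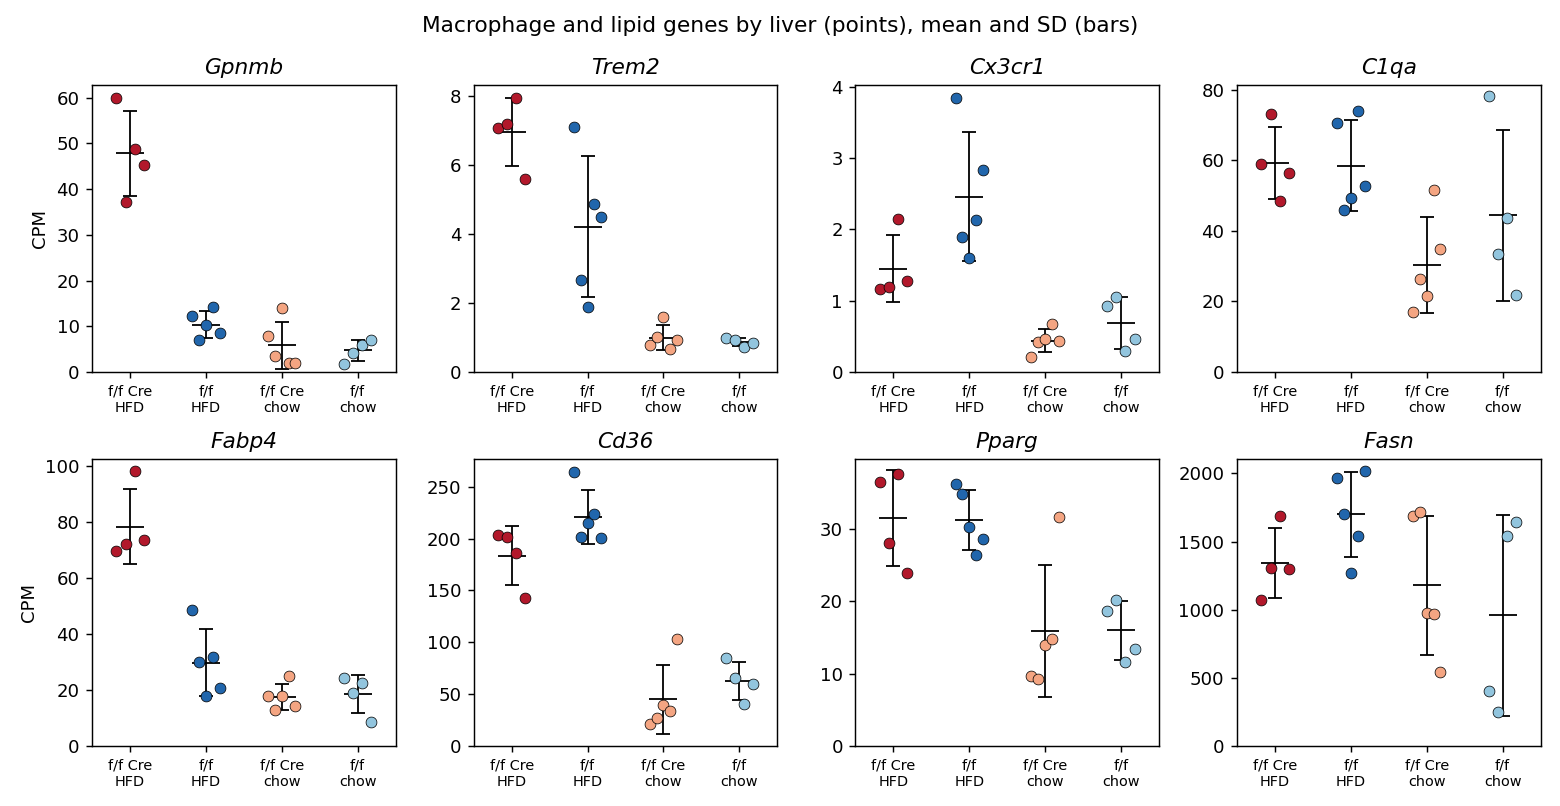
CPM of 8 macrophage and lipid genes in each liver (points), with the group mean and SD (bars), in the same 4 groups; axes are linear and start at 0. Gpnmb and Fabp4 separated the genotypes on HFD; Trem2, Cx3cr1, C1qa, Cd36, Pparg and Fasn overlapped.

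Lipid synthesis and oxidation genes were not called, where 0.883% of all genes were called. Cd36, the fatty acid translocase, had 204, 201, 186 and 142 CPM in S100a8f/fCx3cr1Cre HFD livers and 264, 201, 215, 224 and 201 CPM in S100a8f/f HFD livers. The groups overlapped, and the log2 fold change of -0.27 had a 95% interval of -0.94 to 0.39 (adjusted p = 0.931). Pparg, the lipid-storing nuclear receptor, averaged 31.6 ± 6.64 CPM in S100a8f/fCx3cr1Cre HFD livers and 31.3 ± 4.15 CPM in S100a8f/f HFD livers (SD, n = 4 and 5, 95% interval of the log2 fold change -0.55 to 0.57). Of 27 measured genes of the PPARγ and lipid droplet list, the 3 that rose were Plin1, Fabp4 and Adipoq. None of 23 lipogenesis genes was called (median log2 fold change -0.11). The 95% intervals of the log2 fold change were -0.72 to 0.33 for Srebf1, the lipogenic transcription factor, -1.22 to 0.54 for Fasn, the fatty acid synthase, and -0.59 to 0.42 for Scd1, the stearoyl-CoA desaturase. None of 30 fatty acid oxidation, 23 cholesterol synthesis, 21 bile acid, 12 core hepatocyte, 24 acute phase or 20 oxidative phosphorylation genes was called. With 0.883% of all genes called, lists of this size can hold no call by that share alone. Apoe had a log2 fold change of 0.08 with a 95% interval of -0.20 to 0.36. Of 20 fatty acid uptake genes, Fabp4 and Cav1, the caveolin of endothelium, fat cells and smooth muscle, were higher (Cav1 3.48-fold, adjusted p = 0.00110).

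The 4 genes that fell changed by little. They were the tubulin genes Tuba1c and Tubb4b, the chromatin remodeler gene Chd1l, and Gldc, the glycine decarboxylase of the mitochondrial glycine cleavage system. Tuba1c had 64.1, 74.99, 88.6 and 72.4 CPM in S100a8f/fCx3cr1Cre HFD livers and 124, 99.1, 115, 106 and 105 CPM in S100a8f/f HFD livers. It did not overlap between groups and fell by 0.55 on the log2 scale (adjusted p = 0.00804). Tubb4b had 84.03, 89.1, 96.8 and 76.9 CPM in S100a8f/fCx3cr1Cre HFD livers and 137, 113, 129.7, 122 and 110.5 CPM in S100a8f/f HFD livers (adjusted p = 0.0145). Gldc fell by 0.60 on the log2 scale, with 87.2, 101, 73.3 and 98.4 CPM in S100a8f/fCx3cr1Cre HFD livers and 139, 119, 162, 135 and 125 CPM in S100a8f/f HFD livers (adjusted p = 0.0222). Chd1l averaged 12.002 ± 1.34 CPM in S100a8f/fCx3cr1Cre HFD livers and 16.95 ± 1.08 CPM in S100a8f/f HFD livers (SD, n = 4 and 5, adjusted p = 0.0161). Without S100a8f/fCx3cr1Cre replicate 1, none of the 4 was called. Tubb4b also lost its call without S100a8f/fCx3cr1Cre replicate 5 or S100a8f/f replicate 1, Chd1l without S100a8f/fCx3cr1Cre replicate 4 or S100a8f/f replicate 3, and Gldc without S100a8f/fCx3cr1Cre replicate 4 or S100a8f/f replicate 1 or 3. Within the tubulin α family, and within the β family, genes are close in sequence, so reads may move between members of 1 family. This was not tested. Tubb2a, named after its values were seen, had 107, 161, 239 and 82.1 CPM in S100a8f/fCx3cr1Cre HFD livers and 443, 220.1, 227, 274 and 357 CPM in S100a8f/f HFD livers, and missed the threshold in the main fit (adjusted p = 0.0745). It was called lower by DESeq2, by limma-voom and without S100a8f/fCx3cr1Cre replicate 4.

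Lists of cell cycle and antioxidant genes held lower values without calls in the main fit. Of 23 measured cell cycle genes, 8 were lower at an unadjusted p below 0.05, against 2.84% of all genes, and none passed adjustment (median log2 fold change -0.46). Ccnd1, the cyclin that opens the cycle, had 17.4, 15.1, 20.8 and 17.2 CPM in S100a8f/fCx3cr1Cre HFD livers and 29.9, 28.03, 34.7, 31.1 and 29.95 CPM in S100a8f/f HFD livers, groups that did not overlap (adjusted p = 0.216). It was called lower by limma-voom and in a fit of the HFD groups alone. Of 23 measured targets of NRF2, the transcription factor of the antioxidant response, 7 were lower at an unadjusted p below 0.05 and none passed adjustment (median log2 fold change -0.21). Gstm3, a glutathione transferase, had 69.3, 83.5, 90.2 and 46.2 CPM in S100a8f/fCx3cr1Cre HFD livers and 204, 123, 109, 138 and 211 CPM in S100a8f/f HFD livers (adjusted p = 0.101). DESeq2, limma-voom and the fit of the HFD groups alone called Gstm3 lower. Nfe2l2, which encodes NRF2, averaged 92.8 ± 9.42 CPM in S100a8f/fCx3cr1Cre HFD livers and 122 ± 14.2 CPM in S100a8f/f HFD livers (SD, n = 4 and 5, adjusted p = 0.274).

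On chow the genotypes were not separated by any called gene. edgeR called 0 of 13817 genes, with 775 at an unadjusted p below 0.05, while DESeq2 called 5 and limma-voom 0. Myh11 averaged 3.07 ± 1.81 CPM in S100a8f/fCx3cr1Cre chow livers and 2.11 ± 1.10 CPM in S100a8f/f chow livers (SD, n = 5 and 4), means inside the range of the S100a8f/f HFD livers. Ccn3 averaged 1.70 ± 0.703 CPM in S100a8f/fCx3cr1Cre chow livers and 0.824 ± 0.582 CPM in S100a8f/f chow livers. The 118 genes that were higher on HFD had a median log2 fold change of 0.12 on chow, positive in 77 of them. The test of whether the genotype difference itself depended on diet called 18 genes (0.130% of genes tested), all with a more positive difference on HFD than on chow, and 17 of them were among the 118. Adipoq had the genotype log2 difference on HFD exceed that on chow by 2.92 ± 0.47 (SE, adjusted p = 0.0151). For Ccn5 this was 2.97 ± 0.48 (adjusted p = 0.0151), and for Flna 1.17 ± 0.22 (adjusted p = 0.0384). For Myh11 (2.41, adjusted p = 0.295), Acta2 (1.96, adjusted p = 0.642) and Ccn3 (1.99, adjusted p = 0.373) it did not pass the test. This count rested on single livers: without S100a8f/fCx3cr1Cre HFD replicate 4 it was 0, without replicate 1 it was 5 and without replicate 5 it was 6, and without S100a8f/f HFD replicate 3 it was 6 and without replicate 5 it was 11.

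**Figure D4:**
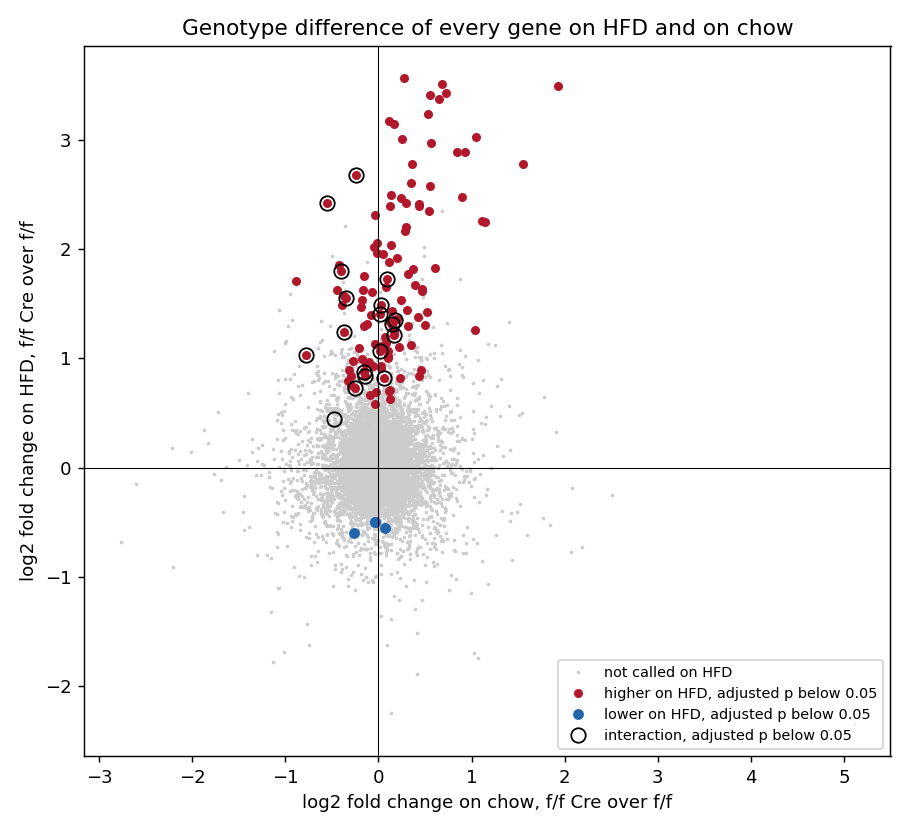
Log2 fold change (S100a8f/fCx3cr1Cre over S100a8f/f) of each of 13817 genes on chow (x axis) and on HFD (y axis), with genes called higher on HFD in red, lower in blue and interaction calls ringed. The 118 red genes spread upward around an x value near 0.12, while no gene was called on chow.

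Members of several lists, smooth muscle and fibroblast markers among them, varied less among the 4 S100a8f/fCx3cr1Cre HFD livers than among the 5 S100a8f/f HFD livers, a difference that was not tested. The spread between livers was measured as the coefficient of variation (CV) of CPM, beside the CV that counting error alone gives. For the 13 smooth muscle markers with a mean of at least 50 counts, the median CV was 8.18% in S100a8f/fCx3cr1Cre HFD livers and 19.98% in S100a8f/f HFD livers, where counting error gave 3.60% in S100a8f/fCx3cr1Cre and 5.74% in S100a8f/f. For the 15 such adventitial fibroblast markers it was 11.4% in S100a8f/fCx3cr1Cre HFD livers and 26.0% in S100a8f/f HFD livers. Counting error gave 5.54% there in S100a8f/fCx3cr1Cre and 8.78% in S100a8f/f. In chow-fed livers the smooth muscle median was 21.3% in S100a8f/fCx3cr1Cre and 20.4% in S100a8f/f, and the fibroblast median was 31.0% in S100a8f/fCx3cr1Cre and 42.2% in S100a8f/f. On HFD the medians of some other lists were also lower in S100a8f/fCx3cr1Cre livers: 14.6% against 34.8% in S100a8f/f livers for lipid-associated macrophages, 13.3% against 23.1% in S100a8f/f livers for vascular endothelium, 10.2% against 20.8% in S100a8f/f livers for matrix proteins and 18.5% against 26.0% in S100a8f/f livers for Kupffer cells. Hepatic stellate markers (13.3% against 14.7% in S100a8f/f livers) and lipogenesis genes (18.2% against 18.7% in S100a8f/f livers) differed little. Core hepatocyte markers went the other way, at 13.5% against 11.5% in S100a8f/f livers. Over all 11247 genes of that depth the median was 11.4% in S100a8f/fCx3cr1Cre HFD livers and 11.6% in S100a8f/f HFD livers. Myh11 varied by 3.79% among S100a8f/fCx3cr1Cre HFD livers, where counting error gave 3.56%, and by 74.9% among S100a8f/f HFD livers. Vim, the intermediate filament gene of mesenchymal cells, named after its values were seen, had 93.2, 91.8, 91.9 and 89.3 CPM in S100a8f/fCx3cr1Cre HFD livers and 46.5, 28.5, 35.6, 44.01 and 43.1 CPM in S100a8f/f HFD livers. Its CV of 1.75% in S100a8f/fCx3cr1Cre HFD livers lay below the counting error of 2.14%, against 18.7% in S100a8f/f HFD livers. Other genes did vary among the same 4 libraries, Tubb2a by 47.1%. The other experiment of the series held HFD-fed wild-type littermates of mice that overexpress Bcl2 in adipocytes, a different cohort from the S100a8f/f controls. These wild-type HFD livers held 0.828 to 3.496 CPM of Myh11, 3.17 to 5.46 CPM of Acta2 and 30.1 to 41.1 CPM of Vim. That experiment's genes included 93 of the 118 higher on HFD here. Cnn1, Pi16, Ccn3 and Adipoq were among those missing, so they could not be compared. The labels used here give no dissection site, lobe, batch or sequencing date for any liver, and the part of these in the evenness or in the genotype difference was not tested.

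**Figure D5:**
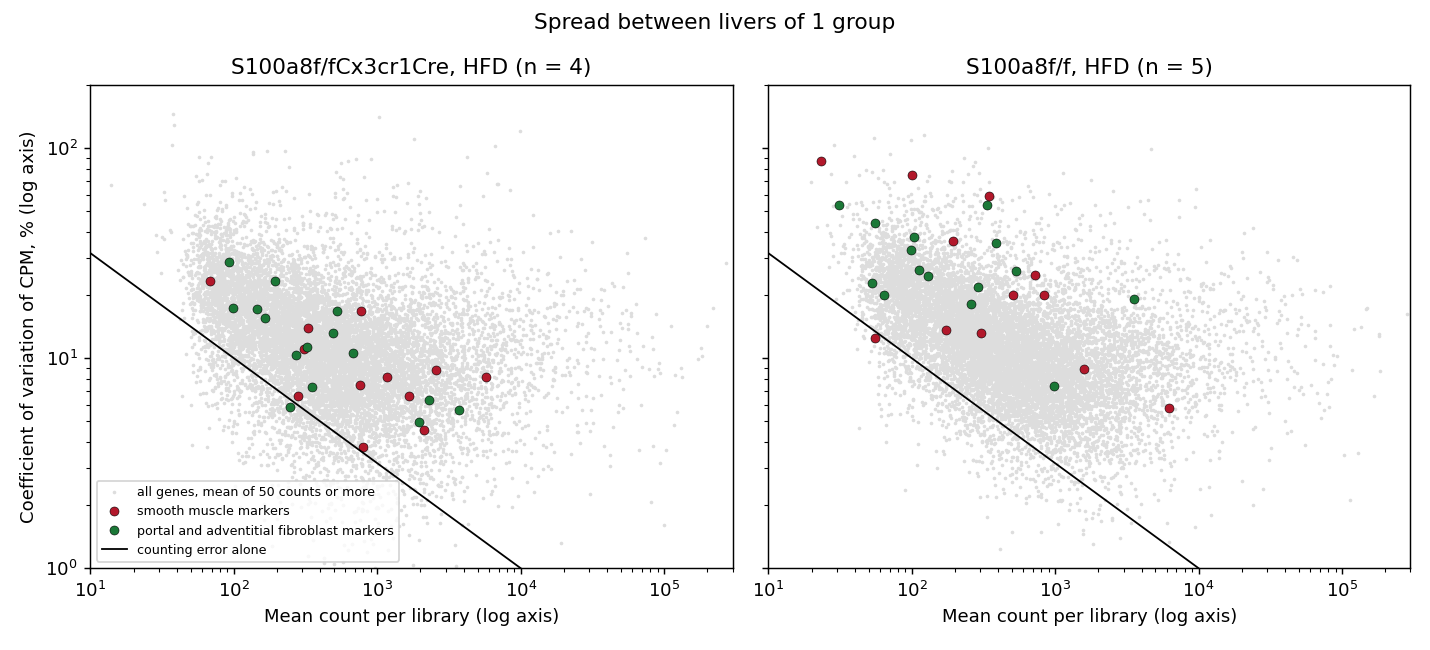
Coefficient of variation of CPM between livers (y axis, percent, log scale) against the mean count per library (x axis, log scale) for S100a8f/fCx3cr1Cre HFD livers (left, n = 4) and S100a8f/f HFD livers (right, n = 5); grey points are all genes with a mean of 50 counts or more and the line is counting error alone. Smooth muscle markers (red) had a median of 8.18% in S100a8f/fCx3cr1Cre livers and 19.98% in S100a8f/f livers.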

How the data were processed

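RNA was taken from the whole livers of male mice, 1 mouse per library, and polyadenylated RNA was sequenced. The authors deposited raw read counts per gene, which their processing notes tie to FastQC, Trimmomatic, HISAT2, SAMtools, featureCounts and DESeq2 on GRCm38; versions and the annotation release are not given in the sources used here. Genes of low mean count had been removed from the deposited table (lowest mean 8.67), so that a gene not analysed here may have been rare. Columns with the authors' own fold changes and p-values were not used. The 14030 entries were reduced to 13817 genes, 1 row per identifier, of which 13809 were found in GENCODE M21.

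Counts were scaled by TMM and fitted with edgeR 4.0.16 (glmQLFit and glmQLFTest, R 4.3.3) over 4 groups and 18 libraries of 18628257 to 25462106 counts, with 1 mean per group and no covariate. The script was tested on simulated data. Contrasts were the genotype difference on HFD, the same on chow, and their difference. Intervals are 95% confidence intervals of the log2 fold change. The p-values measure spread between mice. Lists were described by counts and medians, with no test. Promoters and their starts came from RefSeq (GRCm38.p6).

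Genes were named if they were among the 12 largest differences in each direction (called, a mean of at least 1 CPM, no overlap), in the study's text, tied to the deletion, or among the 4 smallest p-values of a list; Acta2, Vim, Fstl1, Nupr1, Lmbr1l, Tubb2a and further called list members were chosen after their values were seen. The members and lists were chosen with earlier results of these data known. Alternatives were DESeq2 1.42.0, limma 3.58.1 voom with quality weights, other normalisations and filters, a robust fit, a fit of the HFD groups alone, a replicate block, and leaving out each library.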

Additional observations from a re-analysis of the deposited data

Results flagged for a closer look

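In 9 of 130 checks of a gene within an HFD group, 1 liver stood apart from the others of its group by Dixon's criterion, which chance meets in about 1 in 20 groups. Among S100a8f/fCx3cr1Cre HFD livers these were Pi16 in replicate 5 (15.9 CPM, next 13.1 CPM), Gsn in replicate 3 (87.5 CPM, next 80.0 CPM), and in replicate 4 Cx3cr1 (2.15 CPM, next 1.28 CPM) and Fabp4 (98.2 CPM, next 73.5 CPM). Among S100a8f/f HFD livers they were S100a9 in replicate 1 (1.45 CPM, next 0.961 CPM), Apoe in replicate 2 (32860.1 CPM, next 29288 CPM), Cav1 in replicate 4 (6.94 CPM, next 3.89 CPM), and in replicate 5 Ogn (3.05 CPM, next 1.85 CPM) and Serpine2 (12.4 CPM, next 7.52 CPM). The higher S100a8f/f values of Cav1, Ogn and Serpine2 still lay below every S100a8f/fCx3cr1Cre HFD liver.

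For 11 named genes the genotype difference on HFD exceeded that on chow in edgeR's test of the difference itself. On the log2 scale the excess was 2.97 for Ccn5, 2.92 for Adipoq, 1.47 for Fstl1 and 1.03 for Timp2 (adjusted p = 0.0151 each). It was 2.19 for Cav1 and 1.04 for Vim (adjusted p = 0.0241 each), and 1.63 for Nupr1 (adjusted p = 0.0240). It was 1.39 for Serpine2, 1.17 for Flna and 0.92 for Lmbr1l (adjusted p = 0.0384 each), and 0.97 for Cpe (adjusted p = 0.0471). Lmbr1l alone among them was not called on HFD itself: it had 20.3, 14.7, 15.3 and 18.8 CPM in S100a8f/fCx3cr1Cre HFD livers and 12.6, 14.3, 11.7, 12.4 and 12.3 CPM in S100a8f/f HFD livers (adjusted p = 0.153), and averaged 19.2 ± 1.12 CPM in S100a8f/fCx3cr1Cre chow livers and 26.7 ± 5.65 CPM in S100a8f/f chow livers (SD, n = 5 and 4).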

How the results depend on the processing

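The count of 122 genes on HFD was 184 with DESeq2 and 288 with limma-voom, and both sets held all 122; leaving out 1 library at a time gave 89 to 126. On chow, where edgeR called 0 genes and had 775 at an unadjusted p below 0.05, DESeq2 called 5 and limma-voom 0, and leaving out 1 library gave 0 to 2. The interaction count of 18 was 82 with DESeq2, and 0 to 23 with 1 library left out. The main fit did not treat replicate numbers as pairs of mice. Same-numbered HFD livers had correlations of deviations of 0.02, -0.17, -0.09 and -0.07, and same-numbered chow livers of -0.36, -0.07, -0.19 and -0.18. Values from so few livers cannot show whether the numbers paired the mice. With a replicate block the HFD count was 97, of which 96 were among the 122, and the interaction count was 6. Of 51 named genes called on HFD, 37 kept their call under all 26 alternatives and 14 lost it in at least 1. Of 187 not called, 26 were called in at least 1, and no direction of a called gene reversed. The causes were not tested. With 4 and 5 livers, genes of few counts have wide intervals, and a difference that missed the threshold is not shown to be absent.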
